A study of Mus musculus with 6 samples.

Results

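Genes of the neuromuscular junction were examined in muscle of the dystrophin-deficient mdx mouse, in which fibres die and are rebuilt repeatedly. The 10 genes were chosen by name: the 5 subunits of the muscle acetylcholine receptor (Chrna1, Chrnb1, Chrnd, Chrne and Chrng), the nerve-derived signal Agrn, its receptor kinase Musk, the adaptor Dok7, the receptor anchor Rapsn and the adhesion molecule Ncam1. All 10 were measured, of 19752 genes in all, each by 1 probe set of an Affymetrix array. The anti-CD25 group held 3 mdx samples from mice given clone PC61, an antibody against the interleukin-2 receptor alpha chain that marks regulatory T cells. The rat IgG group held 3 mdx samples from mice given the control antibody. The study's title names the question as what depletion of regulatory T cells does to dystrophic muscle. Each antibody was injected 2 times, at 17 and 20 days of age. The design text places dissection 7 days after the second dose, or day 27, whereas the labels give an age of 6 weeks, or day 42. The labels name the tissue only as skeletal muscle and do not say whether the replicates of a group were separate animals, so the p-values reflect only how these samples varied, some of which may be technical.

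At the neuromuscular junction, agrin released by the motor nerve binds Lrp4, which activates the kinase MuSK, and with Dok7 and rapsyn this gathers acetylcholine receptors under the nerve ending. Before birth, and again in denervated or newly formed fibres, the receptor contains the gamma subunit (Chrng). In mature innervated fibres the epsilon subunit (Chrne) takes its place, while alpha, beta and delta subunits are common to both forms. The junctions of mdx fibres are known to be fragmented.

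Levels are given in log2 units of the deposited intensity, and differences are anti-CD25 minus rat IgG throughout, so that a difference of 1 is a doubling. Intensities of different probe sets depend on their probes, so no gene's level is set against that of another. Array medians lay between 149.8 and 151.5, and precision is limited by having 6 arrays. The lower quartile was 51.4 to 56.5 on the anti-CD25 arrays and 51.2 to 57.7 on the rat IgG arrays, so the arrays differed among dim genes, but none of the 10 genes was dim, the lowest by mean level standing at percentile 61.0 of all genes. Mature fibre genes such as the creatine kinase Ckm and the skeletal actin Acta1 were among the brightest on the arrays, with all 10 genes of that list above the 99th percentile. The labels call every animal male, but Xist, the RNA of the inactive X chromosome, was at 11.9 log2 units on anti-CD25 1 and 2 and at 11.8 to 11.9 on rat IgG 1 and 2. On the third array of each group it was at 5.49 (anti-CD25) and 5.48 (rat IgG), and the Y-linked Kdm5d, Eif2s3y and Uty were at 7.80 or more there and at 5.09 or less on the other 4 arrays. Each group therefore held 2 arrays with high Xist and 1 with low Xist. Results for the 10 genes and some others are also given within the high-Xist and the low-Xist class. Il2ra, which encodes the antibody's target, was dim and differed by -0.0049 (95% interval -0.22 to 0.21). Foxp3, a gene of regulatory T cells, stood at percentile 37.6 and differed by -0.0915 (95% interval -0.32 to 0.13). Neither passed the adjusted test, and depletion of regulatory T cells was not tested otherwise.

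No gene of the 10 reached an adjusted p of 0.05 in limma's test over all 19752 genes, and neither did any other gene (0%, 0 of 19752). At an unadjusted p under 0.05, where 6.28% of all genes lay, there were 2 of the 10. Musk was higher with anti-CD25, as were 2.30% of all genes at that p, and Dok7 was lower, as were 3.98%. The adjusted p was 0.75 for both. The other 8 genes differed by -0.16 to -0.010. In all, 9 of the 10 were lower with anti-CD25, with a median difference of -0.074, against 58.9% of all genes and a median of -0.026. Genes above the 60th percentile of mean level, where the 10 lie, had a median difference of 0.016. The groups did not overlap in 2 of the 10 genes, Chrne and Dok7, both lower with anti-CD25, as in 7.46% of all genes. None was without overlap in the higher direction, as in 4.28% of all genes, and 11.7% were so in either direction. The arrays measured RNA of whole muscle, in which fewer nuclei or cells of a kind and less RNA in each cannot be told apart.

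**Figure D1:**
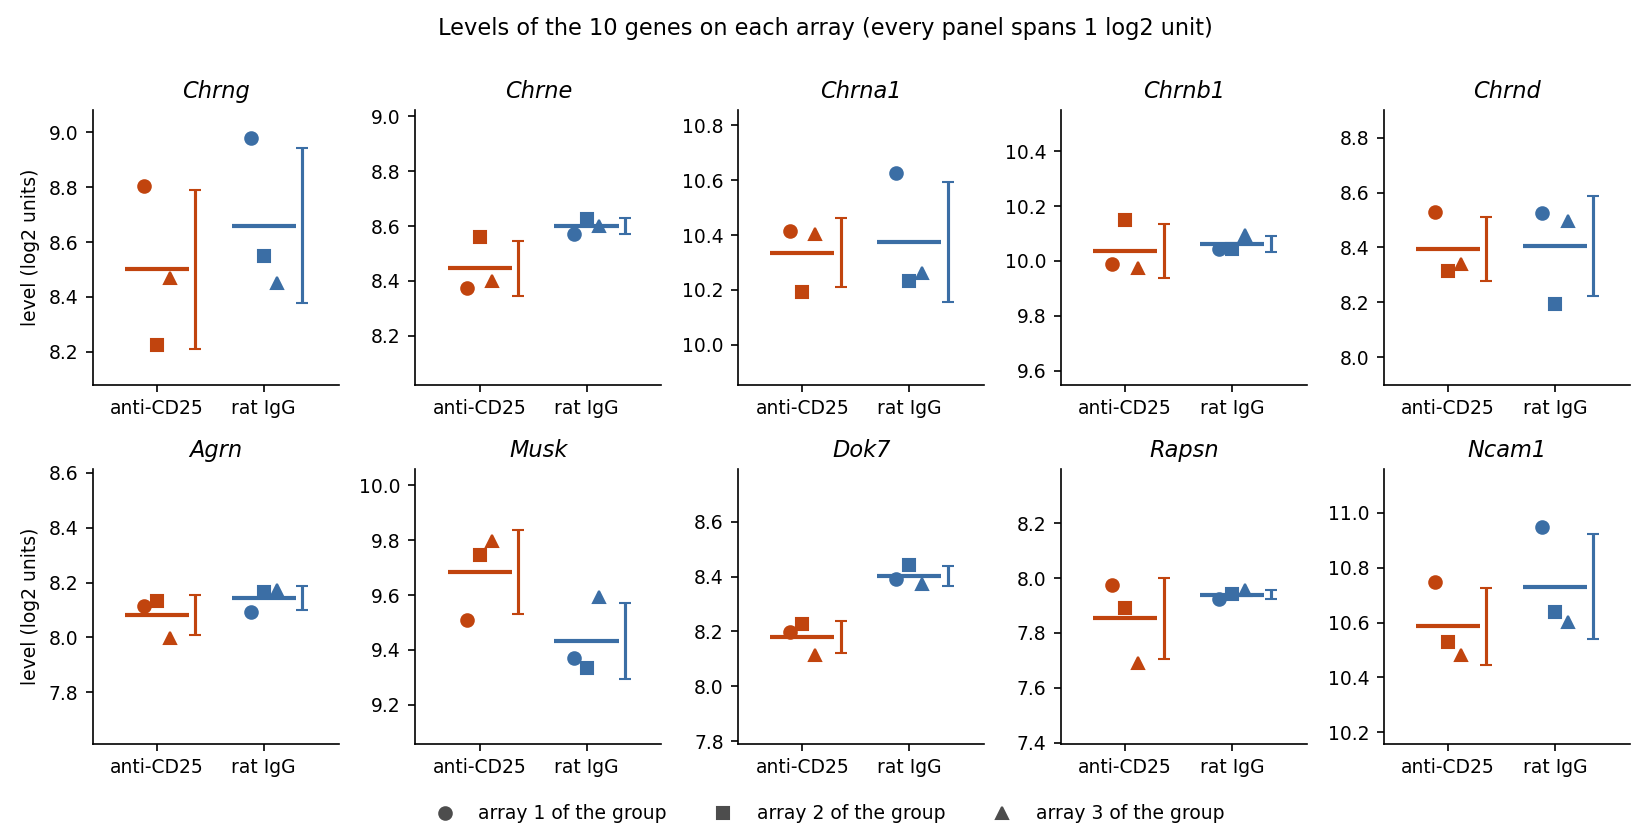
Level of each of the 10 genes in log2 units (y axis, every panel spanning 1 unit) on the 3 anti-CD25 and the 3 rat IgG arrays; points are arrays, horizontal lines group means and error bars the SD. Dok7 and Chrne separate the groups, Musk lies higher with anti-CD25 except where anti-CD25 1 falls below rat IgG 3, and the spread of Chrng within each group exceeds the difference between them.

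The fetal and the adult subunit of the receptor both had lower means with anti-CD25, and neither passed the test. Chrng (probe set 10348166), the fetal gamma subunit, was at 8.80, 8.23 and 8.47 log2 units on anti-CD25 1, 2 and 3, against 8.98, 8.55 and 8.45 on rat IgG 1, 2 and 3. The first array of each group was the highest of its group, and the groups overlapped. Its mean was 8.50 ± 0.29 with anti-CD25 and 8.66 ± 0.28 with rat IgG (SD, n = 3 each), a difference of -0.16 (95% interval -0.55 to 0.23, limma adjusted p = 0.843). This difference was 0.00053 when rat IgG 1 was left out. In the high-Xist class Chrng differed by -0.25, and in the low-Xist class by 0.018.

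Chrne (probe set 10387909), the adult epsilon subunit, varied much less. It was at 8.37, 8.56 and 8.40 log2 units on anti-CD25 1, 2 and 3, and at 8.57, 8.63 and 8.60 on rat IgG 1, 2 and 3. Every anti-CD25 array was below every rat IgG array, although anti-CD25 2 and rat IgG 1 were 0.0090 apart. The mean was 8.45 ± 0.10 with anti-CD25 and 8.60 ± 0.029 with rat IgG (SD, n = 3 each), a fold of 0.899 and a difference of -0.15 (95% interval -0.34 to 0.036). The unadjusted p was 0.0994 and the limma adjusted p was 0.75, and exact two-sided permutation of the arrays gave p = 0.1, the smallest that 3 against 3 can give. Chrne differed by -0.13 in the high-Xist class and by -0.20 in the low-Xist class, and by -0.21 to -0.12 with each array left out in turn.

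The balance of fetal over adult subunit was read from the difference Chrng minus Chrne on each array, whose zero has no meaning because the probe sets differ. It was 0.43, -0.33 and 0.070 on anti-CD25 1, 2 and 3, and 0.41, -0.080 and -0.15 on rat IgG 1, 2 and 3. The first array of each group stood highest, and the groups overlapped over most of their range. The mean was 0.055 ± 0.38 with anti-CD25 and 0.062 ± 0.31 with rat IgG (SD, n = 3 each), so the group means were -0.0064 apart, less than the spread within either group. Single arrays moved this value and turned its sign. It was -0.19 when anti-CD25 1 was left out, 0.19 when anti-CD25 2 was and -0.014 when anti-CD25 3 was. Leaving out an array of the control antibody gave 0.17 for the first, -0.077 for the second and -0.11 for the third. In the high-Xist class it was -0.12. The low-Xist class went the other way, with 0.070 on its anti-CD25 array against -0.15 on its rat IgG array. No p is given for this value, which combines genes of the list.

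The promoters of these subunits are shown with matches to short words that muscle and synaptic transcription factors are known to bind. The matches differed between the fetal and the adult gene, and whether any is used was not tested. RefSeq windows (GRCm38.p6) were matched for 7 of the 10 genes, 9 windows in all, and the 250 bases before the annotated start are printed 5′ to 3′ on the gene's strand. Capitals mark CAGCTG and CAGGTG, E-box forms bound by MyoD and myogenin, and CCGGAA, the N-box bound by the ETS factor GABP, all searched on both strands with no overlap between matches. Musk is shown as the gene with the highest difference, and Chrna1 as a shared subunit whose levels over the arrays resemble those of Chrng.
Chrng, chr1:87205561-87205810, plus strand: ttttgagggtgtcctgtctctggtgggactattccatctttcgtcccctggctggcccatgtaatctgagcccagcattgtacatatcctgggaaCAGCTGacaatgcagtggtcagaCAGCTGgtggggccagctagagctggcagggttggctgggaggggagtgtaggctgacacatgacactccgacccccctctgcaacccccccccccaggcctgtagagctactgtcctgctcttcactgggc
Chrne, chr11:70619195-70619444, minus strand: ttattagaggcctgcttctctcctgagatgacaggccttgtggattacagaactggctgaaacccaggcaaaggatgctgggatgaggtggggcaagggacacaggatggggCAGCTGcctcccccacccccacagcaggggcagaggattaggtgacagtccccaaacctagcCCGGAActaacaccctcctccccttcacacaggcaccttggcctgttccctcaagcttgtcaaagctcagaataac
Chrna1, chr2:73580339-73580588, minus strand: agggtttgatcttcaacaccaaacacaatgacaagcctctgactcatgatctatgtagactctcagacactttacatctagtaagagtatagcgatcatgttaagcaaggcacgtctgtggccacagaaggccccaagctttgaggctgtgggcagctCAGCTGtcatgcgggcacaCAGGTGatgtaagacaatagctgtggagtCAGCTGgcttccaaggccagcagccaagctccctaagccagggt
Musk, chr4:58285712-58285961, plus strand: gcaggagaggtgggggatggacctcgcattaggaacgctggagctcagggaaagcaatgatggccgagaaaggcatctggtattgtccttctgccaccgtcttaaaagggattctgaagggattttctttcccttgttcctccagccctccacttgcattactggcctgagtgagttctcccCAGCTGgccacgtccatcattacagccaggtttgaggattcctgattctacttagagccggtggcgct

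The Chrng window held CAGCTG 155 and 132 bases before the start. In the Chrne window CAGCTG stood 138 bases and CCGGAA 76 bases before the start. Chrna1 had CAGCTG at 92 and 44 bases and CAGGTG at 73 bases, and Musk had CAGCTG at 68 bases. Among the 7 genes with a window, 4 held CAGCTG, 2 held CAGGTG and 1, Chrne, held CCGGAA. Of all 32851 windows of the same length, 13.0% held CAGCTG, 17.2% CAGGTG and 12.0% CCGGAA, so these short words are common and a match describes the letters alone.

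The subunits common to both receptor forms differed least. Chrna1 (probe set 10483706), the alpha subunit that carries the acetylcholine binding face, was at 10.41, 10.19 and 10.40 log2 units on anti-CD25 1, 2 and 3, against 10.63, 10.23 and 10.26 on rat IgG 1, 2 and 3. Rat IgG 1 stood above all others, the groups overlapped, and the difference was -0.038 (95% interval -0.32 to 0.24, limma adjusted p = 0.956). Leaving out rat IgG 1 gave 0.088, and leaving out anti-CD25 2 gave 0.034. In the high-Xist class it was -0.13, and in the low-Xist class 0.14.

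Chrnb1 (probe set 10387625), the beta subunit, was among the steadiest of the genes, at 9.97 to 10.15 log2 units with anti-CD25 and 10.04 to 10.10 with rat IgG. Its difference was -0.024 (95% interval -0.21 to 0.16, limma adjusted p = 0.96), and left-out arrays moved it between -0.080 and 0.0084. It was 0.026 in the high-Xist class and -0.12 in the low-Xist class. Chrnd (probe set 10348150), the delta subunit, lies next to Chrng in the genome, where no annotated gene separates them. It was at 8.53, 8.32 and 8.34 log2 units on anti-CD25 1, 2 and 3, against 8.52, 8.19 and 8.50 on rat IgG 1, 2 and 3, and its difference was -0.010 (95% interval -0.26 to 0.24, limma adjusted p = 0.989). Chrnd differed by 0.063 in the high-Xist class and by -0.16 in the low-Xist class. The intervals of these 3 shared subunits reached at most 0.32 log2 units from 0, and larger differences lay outside them.

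Over the arrays, the fetal subunit varied more than the adult one. Chrng spanned 0.76 log2 units over the 6 arrays, the widest range of the 10 genes, against 0.25 for Chrne. Relative to its own mean, Chrng stood at 0.22 on anti-CD25 1 and -0.35 on anti-CD25 2, and at 0.40 on rat IgG 1. Chrna1, Chrng and Ncam1 were all highest on rat IgG 1, where genes of regenerating fibres were high too, with 6 of the 10 measured on that list highest there. The list mean, each gene taken relative to its own mean, was 0.13, -0.14 and -0.19 on anti-CD25 1, 2 and 3, and 0.27, -0.011 and -0.052 on rat IgG 1, 2 and 3. The part of regenerating fibres in the level of Chrng was not tested.

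**Figure D2:**
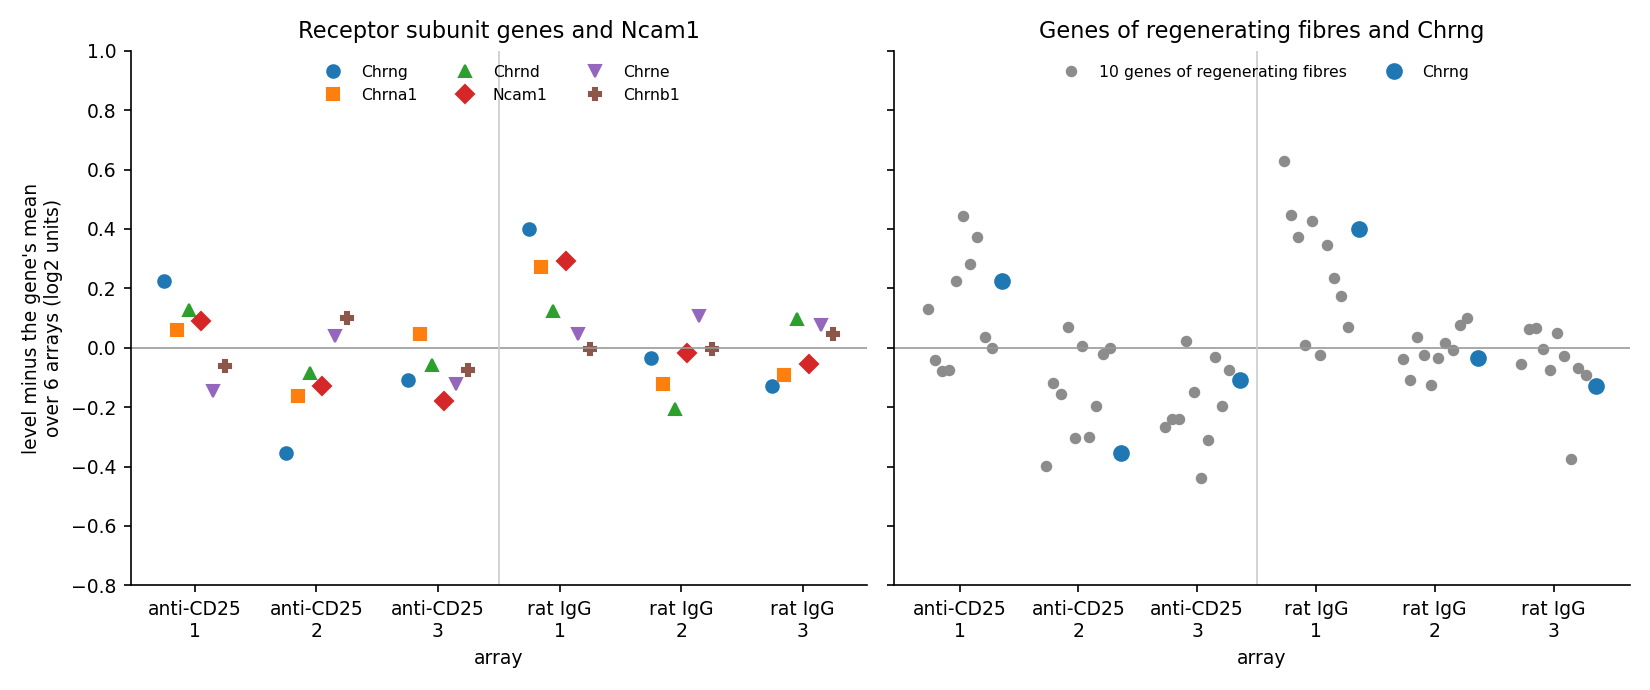
Level of each gene minus its own mean over the 6 arrays, in log2 units (y axis), on the 3 anti-CD25 and the 3 rat IgG arrays (x axis); on the left the 5 receptor subunits and Ncam1, on the right Chrng in blue beside the 10 genes of regenerating fibres in grey. Chrng stands at 0.22 on anti-CD25 1 and 0.40 on rat IgG 1 and below 0 on the other 4 arrays.

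Among 9875 genes brighter than the median gene, likeness was measured as the root mean square difference of levels over the 6 arrays, each gene taken relative to its own mean. The 3 genes closest to Chrng were Tnnt2, the cardiac troponin T that developing skeletal muscle also uses, at 0.051, the kinase Dclk1 at 0.075 and R3hdml at 0.086, where Chrng itself deviated from its mean by 0.25. Tnnt2 was at 11.22, 10.69 and 10.85 log2 units on anti-CD25 1, 2 and 3, and at 11.42, 10.87 and 10.92 on rat IgG 1, 2 and 3. Closest to Chrne were Cdk10 at 0.016, the RNA polymerase subunit Polr2l at 0.019 and Acsl6, an acyl-CoA synthetase, at 0.020, where Chrne deviated by 0.098. With 6 arrays and 9875 candidates, close matches describe these arrays.

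The genes that receive the agrin signal differed in opposite directions, and none passed the test. Musk (probe set 10505145), the kinase that starts receptor clustering, was at 9.51, 9.75 and 9.80 log2 units on anti-CD25 1, 2 and 3, against 9.37, 9.33 and 9.59 on rat IgG 1, 2 and 3. The groups overlapped only because anti-CD25 1 lay below rat IgG 3. Its mean was 9.68 ± 0.15 with anti-CD25 and 9.43 ± 0.14 with rat IgG (SD, n = 3 each), a fold of 1.19 and a difference of 0.25 (95% interval 0.0053 to 0.50, not adjusted for the number of genes). The unadjusted p was 0.0462, the limma adjusted p 0.75 and the exact two-sided permutation p 0.2. Musk differed by 0.27 in the high-Xist class and by 0.21 in the low-Xist class, and by 0.19 to 0.34 with each array left out.

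Dok7 (probe set 10521371), the adaptor inside the fibre that holds MuSK active, was at 8.20, 8.23 and 8.11 log2 units on anti-CD25 1, 2 and 3, and at 8.39, 8.44 and 8.37 on rat IgG 1, 2 and 3. Every anti-CD25 array was below every rat IgG array, and the gap between the groups was wider than the range within either. The mean was 8.18 ± 0.058 with anti-CD25 and 8.40 ± 0.037 with rat IgG (SD, n = 3 each), a fold of 0.857 and a difference of -0.22 (95% interval -0.40 to -0.047, not adjusted for the number of genes). The unadjusted p was 0.0186 and the limma adjusted p 0.75, and exact permutation of the arrays gave p = 0.1, again the smallest possible. It was -0.21 in the high-Xist class and -0.26 in the low-Xist class, and ran from -0.25 to -0.19 with each array left out.

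Lrp4, the receptor that binds agrin and is no member of the 10, had a like difference. It was at 7.89, 7.88 and 7.78 log2 units on anti-CD25 1, 2 and 3, against 8.06, 8.13 and 8.10 on rat IgG 1, 2 and 3, without overlap. The difference was -0.25 (SE 0.078, limma unadjusted p = 0.0111, adjusted p = 0.75), with -0.21 in the high-Xist class and -0.32 in the low-Xist class. Of the 3 proteins that form the agrin receptor and its adaptor, the kinase Musk was thus on the higher side with anti-CD25 and Lrp4 and Dok7 on the lower side, and none passed the adjusted test.

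Agrn (probe set 10519270), the nerve signal that muscle also makes in a less active form, was at 8.00 to 8.13 log2 units with anti-CD25 and 8.09 to 8.17 with rat IgG, a difference of -0.062 (95% interval -0.24 to 0.12, limma adjusted p = 0.872). Without anti-CD25 3 the difference of Agrn was -0.020, and it was -0.0059 in the high-Xist class and -0.17 in the low-Xist class. Rapsn (probe set 10473783), which anchors receptors to the cytoskeleton, was at 7.97, 7.89 and 7.69 log2 units on anti-CD25 1, 2 and 3, and at 7.92, 7.94 and 7.96 on rat IgG 1, 2 and 3. The rat IgG arrays were within 0.032 of each other, anti-CD25 3 was the lowest, and the difference was -0.087 (95% interval -0.30 to 0.12, limma adjusted p = 0.84). Without anti-CD25 3 the difference of Rapsn was -0.0058. It was 0.0018 in the high-Xist class and -0.26 in the low-Xist class.

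Ncam1 (probe set 10593293) is an adhesion molecule of the synapse that denervated and regenerating fibres, satellite cells and nerve are also known to carry. It was at 10.75, 10.53 and 10.48 log2 units on anti-CD25 1, 2 and 3. On rat IgG 1, 2 and 3 it was at 10.95, 10.64 and 10.60, so the groups overlapped, and both had their highest value on the first array. The difference was -0.14 (95% interval -0.41 to 0.12, limma adjusted p = 0.797), and it was -0.035 without rat IgG 1, -0.16 in the high-Xist class and -0.12 in the low-Xist class. Satellite cell markers were lower with anti-CD25 in 4 of 8 genes. The part of satellite cells in the level of Ncam1 was not tested.

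**Figure D3:**
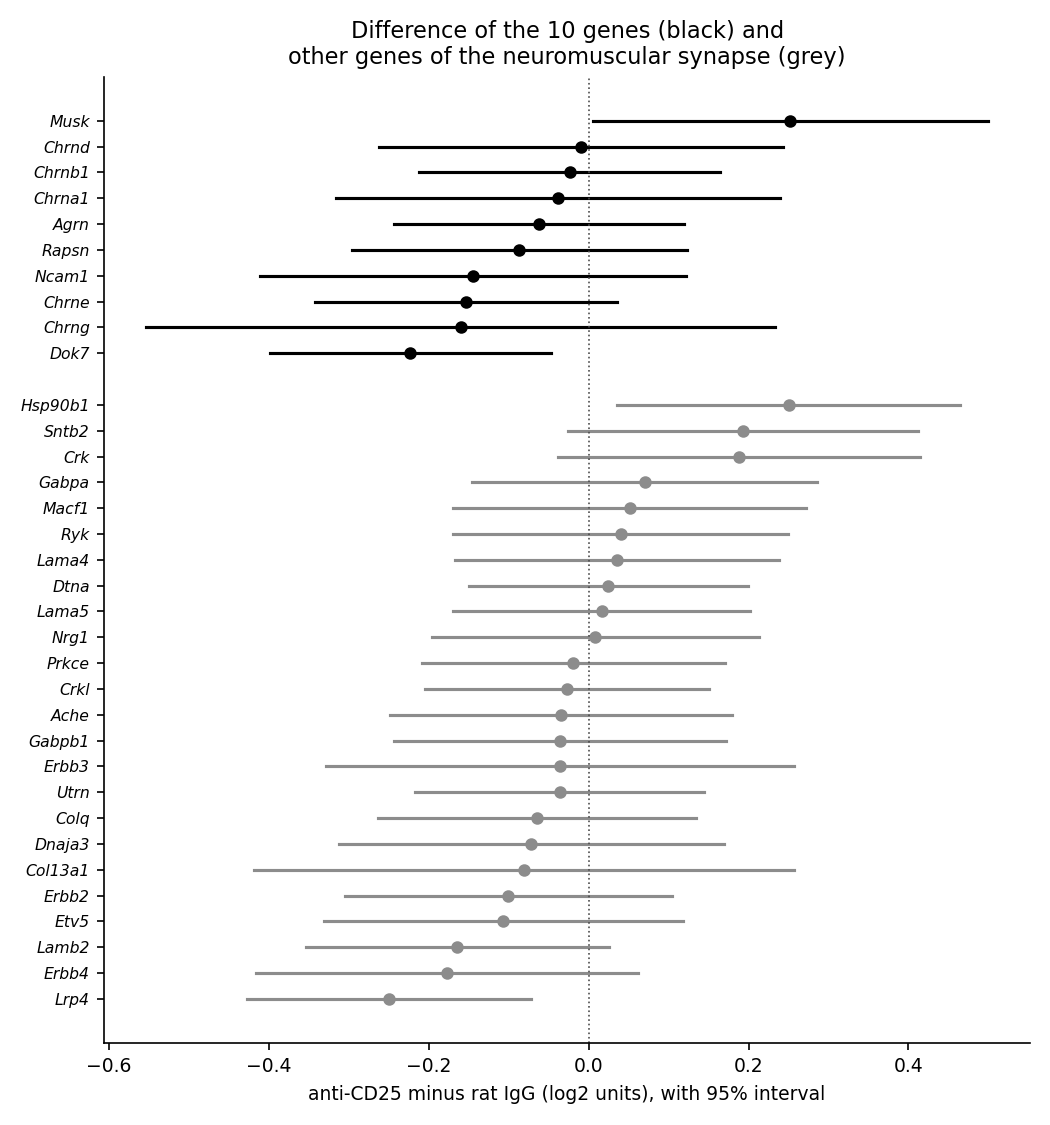
Difference anti-CD25 minus rat IgG in log2 units (x axis) with limma's 95% interval, not adjusted for the number of genes, for the 10 genes in black and 24 other genes of the neuromuscular synapse in grey. Among the 10, the intervals of Musk (0.25) and Dok7 (-0.22) leave out 0; among the others, those of Hsp90b1 (0.25) and Lrp4 (-0.25) do.

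Whether the treatment difference itself differed between the Xist classes was tested with limma as an interaction over all genes, with 1 low-Xist array in each group. It passed for 0 of the 10 and for 8 of 19752, and the smallest unadjusted p among the 10 was 0.146, for Rapsn.

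The other genes of the synapse were split between higher and lower. Of 25 listed, 24 were measured, with 14 lower and 10 higher in the anti-CD25 group and a median difference of -0.031, and 0 passed the adjusted test in either direction. Beside Lrp4, the only one at an unadjusted p under 0.05 was Hsp90b1, a chaperone of the endoplasmic reticulum, at 0.25 (SE 0.094, limma adjusted p = 0.75). Lamb2, the synaptic laminin chain, was at -0.16 (limma unadjusted p = 0.0814). The groups did not overlap in 2 of the 24 in the lower direction, Lrp4 and Lamb2, and in 1 in the higher direction, Hsp90b1. Of all genes, 7.46% and 4.28% were so. Ache, the esterase that clears acetylcholine, differed by -0.034, its collagen tail Colq by -0.065, the dystrophin relative Utrn by -0.036 and Etv5, an ETS factor of the synapse, by -0.11. Neuregulin Nrg1 differed by 0.0082 and its receptors Erbb2, Erbb3 and Erbb4 by -0.10, -0.036 and -0.18.

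Neuronal receptor subunits were all below the median gene in brightness. Differences can be understated there, which was not tested, and the arrays also differed among dim genes. Of the 11 measured, 8 were lower, with a median of -0.051 and none past the adjusted test. Chrna4 had the lowest statistic, at -0.28 (SE 0.099, limma unadjusted p = 0.0215, adjusted p = 0.75), and Chrnb3 the highest, at 0.11. The 30% dimmest genes as a whole had a median of -0.080, against 0.016 for genes above the 60th percentile, so lower values are common among dim genes.

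Genes that denervation or inactivity is known to change were measured for 11 of 14 entries, of which 8 were lower, with a median of -0.046 and none past the adjusted test. Fbxo32, a ubiquitin ligase of atrophy, was at -0.35 (SE 0.15, limma unadjusted p = 0.0398, adjusted p = 0.75). With each array left out in turn Fbxo32 ran from -0.50 to -0.22, the smaller without rat IgG 2, with an unadjusted p under 0.05 in 2 of the 6 fits and a largest of 0.15. Runx1, which denervated fibres induce, was at 0.17, Myog, a driver of receptor genes, at 0.0073, and Hdac4, a repressor that denervation raises, at -0.030. Genes of regenerating fibres were lower in 7 of 10, with a median of -0.14 and none past the adjusted test. The embryonic light chain Myl4 was lowest by its statistic, at -0.32 (SE 0.11, limma unadjusted p = 0.0168, adjusted p = 0.75), and the fusion peptide Mymx highest, at 0.097. Myl4 was at -0.21 without rat IgG 1. Myog is on both lists.

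Mature fibre genes differed by -0.086 for Actn3 to 0.015 for Pvalb, with 7 of 10 lower and a median of -0.025, and their summed intensity was 93186 to 95936 with anti-CD25 and 94180 to 97203 with rat IgG. Macrophage markers were higher in 13 of 13 genes, with a median of 0.29 and 0 past the adjusted test, and their summed intensity ran from 17949 to 23789 with anti-CD25 and from 15162 to 18431 with rat IgG. Mertk at 0.71, Cd163 at 0.51, Cd68 at 0.45 and Adgre1 at 0.38 had a limma unadjusted p under 0.05. Of all genes, 2.30% were higher at that p. These markers were so in 6, 6, 3 and 3 of the 6 fits that left out an array, and Cd14 had the lowest statistic, at 0.20. In the low-Xist class, with 1 array a group, Cd14 (-0.30), Itgam (-0.096) and C1qa (-0.019) were lower and the other markers higher. Schwann cell markers were lower in 7 of 8, with a median of -0.14 and a summed intensity of 4197 to 6117 with anti-CD25 and 4771 to 6671 with rat IgG, from Egr2 at -0.55 to Cdh19 at 0.032. Sox10, at -0.21, had the lowest statistic, and Egr2 was at -0.093 without rat IgG 3. Between the low-Xist arrays, 1 in each group, S100b (0.23), Mbp (0.089), Sox10 (0.070), Ngfr (0.33) and Pmp22 (0.12) were higher. Mag, Egr2 and Cdh19 were lower there. Egr2 differed by -0.015 in the high-Xist class and by -1.6 in the low-Xist class. No marker was at 0 on any array, which does not show that each was detected. Of the 8 Schwann markers, 4 were dimmer than the median gene. The part of macrophages and Schwann cells in the differences of Musk, Dok7, Lrp4 and Chrne was not tested.

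The remaining markers had medians of -0.043 for satellite cells (Calcr -0.16, Cxcr4 0.23), -0.11 for endothelium (Kdr -0.27, Pecam1 0.022), 0.0010 for fibroblasts (Col1a1 -0.040, Lum 0.052) and -0.064 for natural killer cells (Eomes -0.22, Klrd1 0.19). Natural killer cell markers were lower with anti-CD25 in 4 of 6 genes, and all 6 were dimmer than the median gene. No member of these 4 lists passed the adjusted test.

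**Figure D4:**
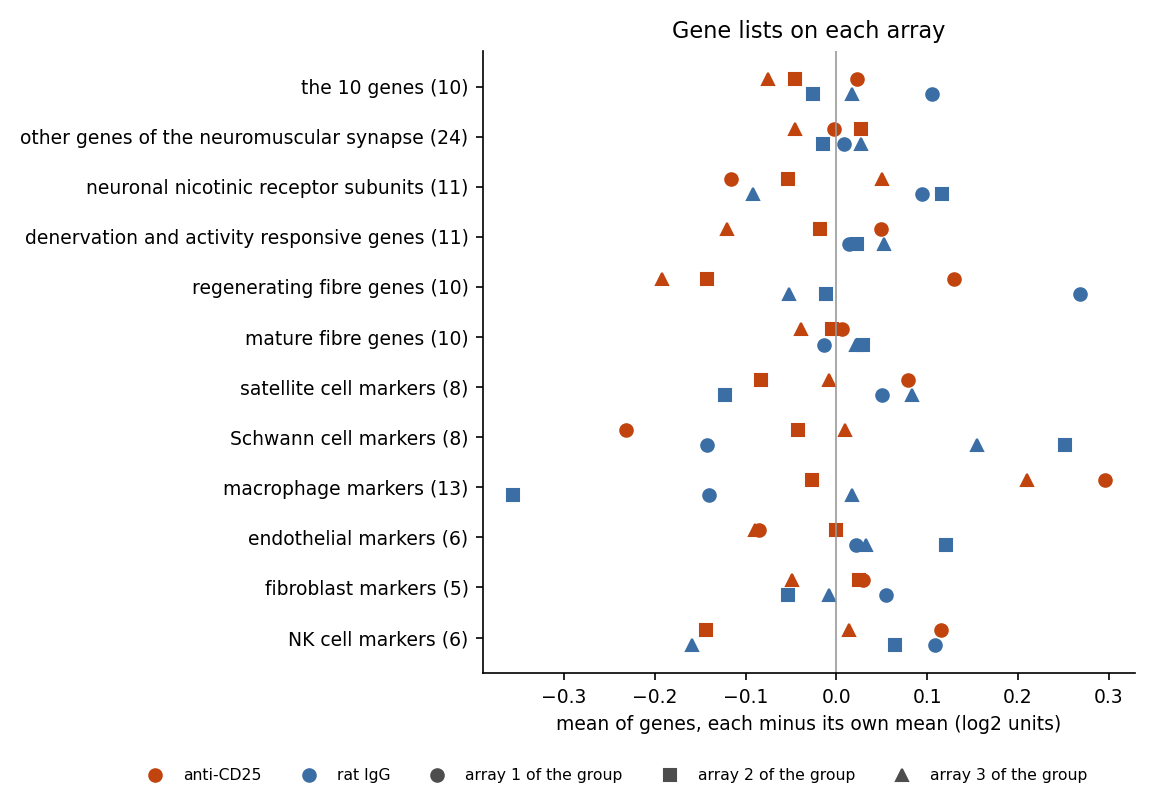
Mean level of each gene list on each array, every gene taken relative to its own mean over the 6 arrays, in log2 units (x axis), with the number of genes in parentheses; orange points are anti-CD25 arrays and blue points rat IgG arrays. The macrophage markers lie between -0.027 and 0.30 with anti-CD25 and between -0.36 and 0.017 with rat IgG, and the 10 genes between -0.075 and 0.023 with anti-CD25 and between -0.025 and 0.11 with rat IgG.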

How the data were processed

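RNA of 6 mdx muscle samples was hybridised to 1 Affymetrix array each. The authors deposited 1 table of intensity values for 24922 probe sets, made with RMA in Affymetrix Power Tools per the submitters' processing notes; its version is not given in the sources read. RMA normalizes quantiles and draws dim values together, but the lower quartiles of the deposited values still differed between arrays. The values are linear, so log2 was taken with no pseudocount and no filter. The platform annotation gave 21425 probe sets 1 symbol, 1399 several and 2098 none; the probe set with the highest mean stood for each of 19752 genes, of which 921 had several. limma (3.58.1, R 4.3.3; lmFit and eBayes, two-sided, group as the only term) was fitted to all genes with Benjamini-Hochberg adjustment, and tested on simulated data. The simulated data had independent normal noise. Over 10 simulations, 646 differences of 0.5, 696 of 1 and 658 of 2 log2 units were put in together. limma recovered 69.3% of those of 0.5 log2 units. In the deposited data 0 genes passed, so this share, which depends on the mixture and the noise, may not hold for them. Smaller differences, such as those of the 10 genes, were not simulated. Lists were described by counts and medians.

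The 10 genes, the 11 lists (112 of 120 entries measured) and the tests were chosen with earlier results of these data known, so none is independent support. Named are the 10 genes, from each list the members with the highest and lowest moderated statistic and those with unadjusted p under 0.05, and the 3 genes most like Chrne and Chrng. Lamb2, Ache, Colq, Utrn, Etv5, Nrg1, Erbb2, Erbb3, Erbb4, Myog, Hdac4, Ckm, Acta1 and Foxp3 were named for their roles, after their values were seen. Same-numbered arrays of the groups did not deviate together (correlations 0.030, -0.0067 and -0.17), so the numbers were not taken as pairs. Alternatives were renormalization, centring, other variance models, array weights, a brightness filter, probe set means, Xist, the replicate number and leaving out each array.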

Additional observations from a re-analysis of the deposited data

How the results depend on the processing

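Each of the 10 genes was recomputed under 15 alternatives, and the smallest limma adjusted p of any of them was 0.207. In 4 of these (another variance model, the brightness filter, probe set means and the replicate block) the differences could not move, so 11 could turn a sign. Chrne, Musk, Dok7, Ncam1 and Agrn kept theirs in those 11, and the other 5 genes did not in at least 1. With each array left out in turn Chrna1 ran from -0.11 to 0.088, Chrnb1 from -0.080 to 0.0084, Chrnd from -0.12 to 0.050, Chrng from -0.31 to 0.00053, Agrn from -0.088 to -0.020 and Chrng minus Chrne from -0.19 to 0.19. Array weights turned Chrnd to 0.010 and gave -0.060 for Chrng minus Chrne. Within the arrays with high Xist Chrnb1 was 0.026, Chrnd 0.063 and Rapsn 0.0018. Musk had an unadjusted p under 0.05 in 10 of the 15 and Dok7 in 12, with the largest at 0.149 and 0.0662. Chrne had one in 2 of the 15. A second quantile normalization gave -0.18 for Chrne (limma unadjusted p = 0.0409) and 0.22 for Musk (limma unadjusted p = 0.0593). The limma adjusted p was 0.714 for both. The cause of these changes was not tested.

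With each array left out, limma called 0 to 7 genes over the whole array, the 7 without rat IgG 3 and none of them among the 10. Other alternatives, treat against a 1.2-fold change and an adjusted p of 0.1 called 0. With the replicate number as a block limma also called 0, with 1105 genes at an unadjusted p under 0.05 against 1240 without it. Chrng minus Chrne is -0.0064 under the block by construction, since every number holds 1 array of each group. Musk and Dok7 then had unadjusted p of 0.0419 and 0.0483 and adjusted p of 0.882 and 0.891. Same-numbered samples also share their Xist class, low for number 3 and high for numbers 1 and 2, so the block partly follows that class. By the correlation of deviations, each sample was most like a sample of another number in the other group. Signal over background limits the neuronal subunits and natural killer markers, and 3 arrays a group limit every gene, with a median 95% interval of 0.22 log2 units to each side.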
